A study of Mus musculus with 18 samples.

Results

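RNA-Seq of colon was compared between 3 *Cldn2*KO libraries from mice recovering from dextran sulfate sodium–induced (DSS-induced) colitis and 3 libraries from untreated *Cldn2*KO mice. These are 6 of the 18 libraries sequenced. Libraries were chosen by their labels alone (genotype Claudin-2 knockout, treatment DSS-Recovery or Control). The other 12 libraries were 3 in each of the groups WT control, WT recovery, *Cldn2*KO AOM/DSS and WT AOM/DSS (AOM, azoxymethane, a carcinogen). They entered the shared estimate of the spread, and the WT pair of groups served to ask whether a response differed between genotypes. All lines were on a C57BL/6 background with littermate controls. The knockout is carried by every library of the *Cldn2*KO groups, controls included. The labels give tissue (colon), genotype and treatment but no age, sex or animal, and they repeat the AOM/DSS regimen in the protocol field of every sample, so the DSS dose and the length of recovery of these groups were not given in the sources used here. The study names distal colon as the tissue taken from mice recovering from colitis. Since no label ties a library to an animal, the p-values below measure the spread between these libraries, which may in part be technical.

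DSS in drinking water damages the colonic epithelium, and once it is withdrawn crypts regrow, goblet cells refill the mucus layer and the immune infiltrate recedes. Claudin-2 is a tight junction protein that forms a paracellular channel for sodium and water between epithelial cells, and it is low in healthy adult colon and raised in inflammatory bowel disease. The colon is also regionally patterned: posterior Hox genes mark its distal end, and proximal colon and caecum differ from distal colon in ion transport, ketone production and bile acid handling. The comparison asks which genes differ in colon recovering from colitis when claudin-2 is missing.

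Levels are given as CPM, read counts scaled to a common library total and by the trimmed mean of M values (TMM), in the order replicate 1, 2 and 3. Differences are log2 fold changes of recovery over control from edgeR's quasi-likelihood test, with Benjamini-Hochberg adjusted p over the 16937 genes tested. A gene is called higher or lower at an adjusted p under 0.05. The SE after ± was worked back from that test, as the absolute log2 fold change over the square root of its F statistic. For genes near 0 CPM in a group it is only a rough guide. Unless a genotype is named, control and recovery refer to the *Cldn2*KO libraries, with n = 3 in each group.

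The 6 libraries held 17772309 to 22751153 counted reads each. *Cldn2* (ENSMUSG00000047230, chrX:139800828-139811386), the deleted gene, was nearly absent in all of them, at 0.197, 0.0555 and 0.161 CPM in control and 0.375, 0.557 and 0.394 CPM in recovery, against 131, 44.5 and 127 CPM in WT control and 504, 309 and 486 CPM in WT recovery. The knockout labels therefore held in every library, and the small difference within the *Cldn2*KO groups was not called (adjusted p = 0.153). Colon epithelium markers were abundant throughout: their summed level was 28836 to 33682 CPM in control and 39861 to 62282 CPM in recovery, and 4 of the 16 tested were called higher and 1 lower (2 to 5 and 0 or 1 with any 1 of the 6 libraries left out). A pair of measured features separated the libraries besides treatment, and they bear on every result below. First, *Hoxb13* and *Hoxd13*, which mark the distal hindgut, were at 444, 494 and 570.1 CPM and 208, 230.1 and 211 CPM in control but at 0, 0.371 and 0.246 CPM and 0, 0.139 and 0 CPM in recovery. WT recovery libraries lacked both as well (*Hoxb13*, 0.203, 0.502 and 0.0591 CPM), the *Cldn2*KO AOM/DSS libraries had both (*Hoxb13*, 345, 392 and 312 CPM), and 1 control library, WT control 2, lacked them (*Hoxb13* in WT control, 465, 0.327 and 456 CPM). Second, *Xist*, which is transcribed from the inactive X chromosome of females, was at 0.542, 0.499 and 0.108 CPM in control and 0.643, 1449.6 and 1391 CPM in recovery, so that recovery libraries 2 and 3 stood apart from the other 4. The study describes the mice of its lines as matched for age and sex, without saying whether treatment groups were. Position along the colon and treatment cannot be told apart between the 3 control and 3 recovery libraries, because no library of either *Cldn2*KO group breaks the pattern of the posterior Hox genes. Recovery libraries 2 and 3 can be set against recovery library 1 for *Xist*, and a fit with its log2 CPM as a covariate kept 1801 of the 3291 calls.

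In recovery, 18 of 20 smooth muscle genes and 21 of 37 collagen and matrix genes fell, while 20 of 30 genes of ketone production and fat oxidation, 19 of 40 of xenobiotic metabolism and 11 of 26 of goblet cells rose. With any 1 control library left out, fewer ketone, xenobiotic and goblet cell genes were called higher, as given below, while the smooth muscle count did not move. Of all genes tested, 9.43% rose and 10% fell, the shares against which the counts of each list below are to be read. *Muc2*, the main mucin, rose by 1.82 on the log2 scale, *Ppara*, a nuclear receptor that drives fat oxidation, by 4.09, and *Myh11*, smooth muscle myosin, was at a log2 fold change of -2.79, each with no overlap between groups. With the posterior Hox covariate described below, the log2 fold changes were 2.38, 1.0 and -2.56, and none of the 3 was called.

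Among the 16937 genes tested, 3291 were called (19.4%), 1598 higher (9.43%) and 1693 lower (10%) in recovery. Leaving out control library 1, control library 3 or recovery library 2 reduced the calls to 2129, 1972 and 2106. Of the 3291, 960 rose and 1369 fell by more than 2-fold, and 263 rose and 307 fell by more than 8-fold. Control and recovery libraries did not overlap for 6829 genes (40.3% of those tested) and for 3219 of the 3291 called genes. In reads, the genes called higher made up 7.85% to 8.43% of a control library and 17.4% to 19.4% of a recovery library, while those called lower went from between 12.8% and 13.1% to between 3.37% and 4.01%. The largest gains in CPM were of *1810065E05Rik* (75.8, 123 and 68.9 CPM in control, 5257, 4149 and 3712 CPM in recovery), *Emp1*, *Guca2a*, *Muc2*, *Dmbt1* and *mt-Nd5*. The largest losses were of *Tgm3*, a transglutaminase, *Atp12a*, a proton and potassium pump, *Sycn*, *Prdx6*, *Slc26a3* and *Muc3*. *Tgm3* went from 2176, 1929 and 1659 CPM to 0.375, 0.742 and 0.148 CPM (log2 fold change -12.12 ± 1.83, adjusted p = 0.000837), with WT control 2 at 0.917 CPM. Among the largest rises in fold were *Malrd1*, a regulator of intestinal bile acid signaling (0.0986, 0.277 and 0 CPM to 162, 124 and 37.2 CPM, log2 fold change 9.7 ± 1.9, adjusted p = 0.00326), *Prkg2*, a cGMP-dependent kinase (0.296, 0.444 and 0.215 CPM to 220.2, 225 and 48.1 CPM, log2 fold change 8.99 ± 2.23, adjusted p = 0.0119), *Ugt2b5*, a glucuronosyltransferase (0.197, 0.388 and 0 CPM to 111, 65.9 and 67.2 CPM, log2 fold change 8.67 ± 2.04, adjusted p = 0.00882), and *Sptssb*, a subunit of the enzyme that starts sphingolipid synthesis (1.08, 2.27 and 0.108 CPM to 367, 347 and 524 CPM, log2 fold change 8.48 ± 2.08, adjusted p = 0.0113). Among the largest falls, *Fut9*, a fucosyltransferase, went from 78.7, 94.5 and 48.5 CPM to 0, 0.186 and 0.197 CPM (log2 fold change -9.07 ± 1.38, adjusted p = 0.000837). The sialyltransferase *St8sia5* and the protease *Tmprss13* had no read in recovery, at least 282-fold and 216-fold lower, and *Hottip*, a long noncoding RNA of the distal Hoxa cluster, had 1571 reads in control and 1 in recovery, a ratio of 1672 with a 95% counting interval of 299.7 to 66087. Because the posterior Hox genes separated the groups, the fit was repeated with the mean log2 CPM of *Hoxb13* and *Hoxd13* as a covariate. The covariate is nearly the same variable as the groups, and its slope rests almost wholly on WT control 2. That fit called 131 genes (0.773% of those tested), 67 of them among the 3291, of which 62 kept their direction and 5 turned. Another way to look at the same question without a fit is where WT control 2, an untreated library without *Hoxb13* and *Hoxd13*, lay: for 72.1% of the called genes it was beyond both other WT control libraries on the side of the *Cldn2*KO recovery difference, against 56.8% of all genes tested, and for 496 of the 570 genes that changed more than 8-fold (87.0%).

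**Figure D1:**
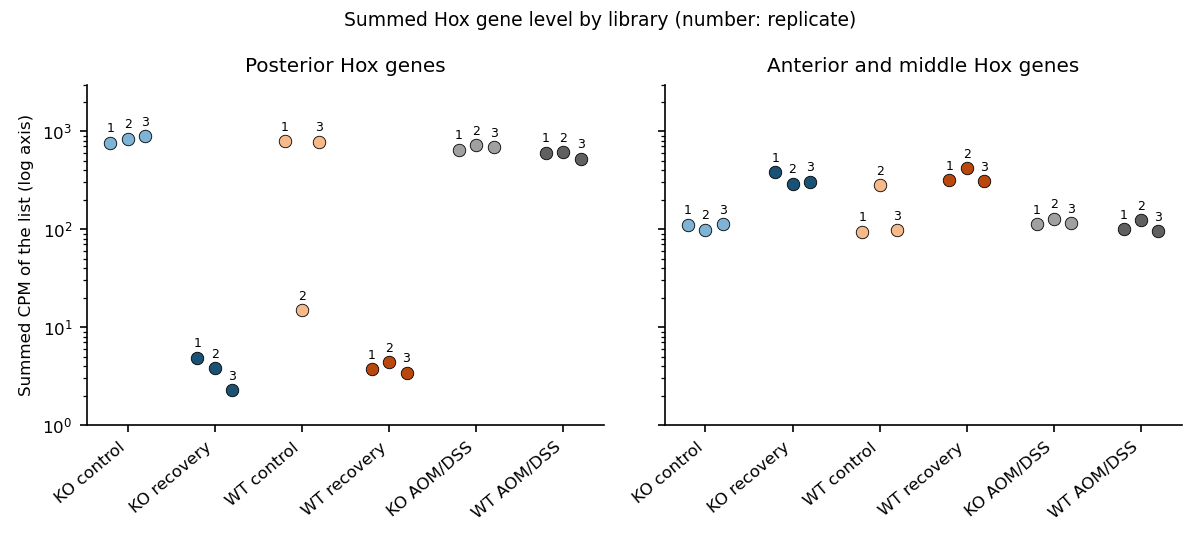
Summed CPM (log axis) of the posterior Hox genes (left) and of the anterior and middle Hox genes (right) in each of the 18 libraries, by group, with the replicate number above each point. The posterior sum was 763 to 896 CPM in *Cldn2*KO control and 2.26 to 4.87 CPM in *Cldn2*KO recovery, and WT control 2 lay at 14.9 CPM, between the other control libraries and the recovery libraries.

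The Hox genes themselves shifted as a series. Of 7 posterior Hox genes tested 6 fell in recovery and 7 did not overlap between groups, with a median log2 fold change of -7.6, against 0.0037 over all genes tested. Over all genes tested 40.3% did not overlap. *Hoxa13* went from 62.6, 56.1 and 56.4 CPM to 0.107, 0.464 and 0.295 CPM (log2 fold change -7.6 ± 1.05, adjusted p = 0.000548). *Hoxd12* went from 8.23, 9.65 and 13.5 CPM to no read in any recovery library, at least 210-fold lower with a floor of 3 reads over the group. *Hoxd10*, just in front of these in the cluster, fell from 21.8, 27.7 and 26 CPM to 1.82, 1.35 and 1.08 CPM (log2 fold change -4.15 ± 0.36, adjusted p = 1.53e-05) and was the one member of this list also called with the Hox covariate (adjusted p = 0.00648). That covariate is itself made of posterior Hox genes, *Hoxb13* and *Hoxd13*, so the fit cannot decide which members of this list changed. *Hoxa10*, which is in neither Hox list, was called in both fits too (log2 fold change -4.96, with the covariate -2.13, adjusted p = 0.00344). Of the 17 anterior and middle Hox genes tested, 8 rose and 4 fell (2 or 3 fell with any 1 of the 6 libraries left out). Of the 8 risers 7 belonged to the Hoxb cluster: *Hoxb6* was at 1.28, 1.83 and 1.78 CPM in control and 101, 44.1 and 66 CPM in recovery (log2 fold change 5.43 ± 1.22, adjusted p = 0.00707). *Hoxb7* was at 0.838, 0.61 and 1.08 CPM and 47.7, 34.5 and 32.9 CPM (log2 fold change 5.5 ± 1.05, adjusted p = 0.00286). WT control 2, at 85.1 CPM of *Hoxb6* and 26.1 CPM of *Hoxb7*, lay with the recovery libraries and not with the other WT controls, and it lay on the recovery side for 11 of the 12 called members. None of the 17 was called with the Hox covariate, against 0.773% of all genes tested.

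Of 17 intestinal transcription factors tested, 3 rose and 2 fell, against 19.4% called over all genes tested, with a median log2 fold change of -0.11. *Isx*, an intestinal homeobox repressor, went from 1.18, 2.83 and 0.646 CPM to 313, 257 and 197 CPM (log2 fold change 7.37 ± 1.51, adjusted p = 0.00421). *Cdx2*, the intestinal master regulator, went from 27.9, 28.3 and 31 CPM to 234, 214 and 242 CPM (log2 fold change 2.99 ± 0.77, adjusted p = 0.0141). *Foxa2*, an endoderm factor, fell from 34.2, 26.8 and 28.2 CPM to 8.67, 5.75 and 11.5 CPM (log2 fold change -1.78 ± 0.38, adjusted p = 0.00498). With the Hox covariate the log2 fold changes of *Isx*, *Cdx2* and *Foxa2* were 0.63, -1.08 and 0.04, none of them called. The other called factors were *Creb3l3* and *Klf4*, with 2 or 3 called higher and 1 or 2 lower when any 1 of the 6 libraries was left out. The markers of small intestine and caecum showed the highest median of any list (3.66), with 8 of 15 called higher and 0 lower. *Slc13a1* (ENSMUSG00000029700, chr6:24088283-24168092), a sodium sulfate cotransporter, was at 0.197, 0.333 and 0.323 CPM in control and 168, 79.7 and 67.5 CPM in recovery (log2 fold change 8.51 ± 0.65, adjusted p = 6.74e-06), with no overlap. WT control 2 held 2.36 CPM of it, nearer to the other WT controls than to recovery, and the gene stayed called with the Hox covariate (log2 fold change 5.91, adjusted p = 0.00545). *Sis*, sucrase-isomaltase, had 2 reads over the control libraries and 2959 over the recovery libraries, a ratio of 1390 with a 95% counting interval of 384 to 11483 (95, 31.7 and 24.6 CPM in recovery). *Fabp2*, the intestinal fatty acid binding protein, was at 21.8, 37.6 and 19.1 CPM and 570.1, 405 and 767 CPM (log2 fold change 4.47 ± 1.34, adjusted p = 0.0304), and here WT control 2 exceeded the *Cldn2*KO recovery libraries at 1715 CPM and the log2 fold change turned to -2.0 with the Hox covariate (adjusted p = 0.480). The part that gut position plays in these genes was not tested beyond the covariate fit and these levels.

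Bile acid and sterol genes rose in 7 of 20 members tested and fell in 2 (1 with any 1 of the 6 libraries left out). *Slc10a2*, the apical sodium bile acid transporter, went from 19.3, 25.3 and 20 CPM to 1228, 1222 and 665 CPM (log2 fold change 5.59 ± 1.1, adjusted p = 0.00334). The basolateral exporter subunits followed: *Slc51a* was at 0.641, 1.17 and 0.0538 CPM in control and 251, 267 and 155 CPM in recovery (log2 fold change 8.49 ± 2.02, adjusted p = 0.00938). *Slc51b* was at 5.23, 6.77 and 6.4 CPM and 109, 119 and 57.7 CPM (log2 fold change 3.96 ± 0.48, adjusted p = 0.000236). These 3 genes were higher in every recovery library than in any control library. WT control 2 lay on the recovery side for all 9 called members of the list, and with the Hox covariate the log2 fold change of *Slc51a* was -4.12 (adjusted p = 0.209). *Nr1h4*, the bile acid receptor FXR, was at 72.3, 83.2 and 62.8 CPM and 394, 302 and 192 CPM (log2 fold change 2.02 ± 0.27, adjusted p = 0.000362). *Klb*, the FGF15 coreceptor β-klotho, fell from 18.8, 21.1 and 15.3 CPM to 0.91, 1.3 and 0.541 CPM (log2 fold change -4.32 ± 0.72, adjusted p = 0.00109). *Slc51b* and *Nr1h4* were also called in WT (adjusted p = 0.00485 and 0.00176).

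Xenobiotic metabolism and ketogenesis were the metabolic lists with the largest share of members called higher, 19 of 40 and 20 of 30, with 2 and 1 called lower. *Cyp3a44* and *Cyp3a25*, drug-metabolizing cytochromes, had no read in any control library and reached 53.8, 14.4 and 9.05 CPM and 25.8, 9.09 and 5.61 CPM in recovery, at least 469-fold and 248-fold higher. Reads of the near-identical Cyp3a paralogs can be split between them, so the values of single members are uncertain. *Cyp2c65* rose from 8.28, 19.5 and 11.3 CPM to 1095, 653 and 876 CPM (log2 fold change 6.07 ± 1.69, adjusted p = 0.0215). *Ugt1a1*, a glucuronosyltransferase, went from 1.43, 0.943 and 0.969 CPM to 55.3, 51.5 and 16.5 CPM (log2 fold change 5.19 ± 0.85, adjusted p = 0.00107). *Nqo1*, a quinone reductase, went from 30.2, 26.4 and 30.1 CPM to 117, 130.4 and 176 CPM (log2 fold change 2.29 ± 0.46, adjusted p = 0.00392). Not every family member moved this way: *Cyp2c68* fell from 147, 172 and 134 CPM to 21.5, 10.3 and 3.69 CPM (log2 fold change -3.68 ± 1.03, adjusted p = 0.0217).

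Of the genes of fat use, *Acadvl*, an enzyme of mitochondrial fat oxidation, rose from 65.3, 61.1 and 68.8 CPM to 161, 133 and 136 CPM (log2 fold change 1.14 ± 0.24, adjusted p = 0.00399). The nuclear receptors that drive this program rose too, *Ppara* from 1.73, 2.22 and 1.13 CPM to 46.1, 24.4 and 16.1 CPM (log2 fold change 4.09 ± 0.76, adjusted p = 0.00239). *Pparg* went from 34.8, 38 and 39.7 CPM to 186, 137 and 184 CPM (log2 fold change 2.17 ± 0.51, adjusted p = 0.00845). Of their targets, *Angptl4* went from 0.937, 0.777 and 0.646 CPM to 92.4, 39.7 and 17.1 CPM (log2 fold change 5.97 ± 0.68, adjusted p = 0.000179). *Plin2*, a lipid droplet coat protein, fell from 319.5, 369 and 291 CPM to 174, 119.9 and 168 CPM (log2 fold change -1.08 ± 0.24, adjusted p = 0.00528). WT control 2 lay on the recovery side for 20 of the 21 called members of the ketogenesis list and 17 of the 21 of the xenobiotic list, with 14.9 CPM of *Ppara*, while its *Angptl4* level (4.32 CPM) was near that of the other WT controls. Leaving out any 1 control library gave 11 to 13 ketogenesis members and 12 xenobiotic members called higher. With the Hox covariate 0 of 30 ketogenesis members and 1 of 40 xenobiotic members were called. That fit called 0.773% of all genes tested, so few calls can be expected in any list of this size.

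**Figure D2:**
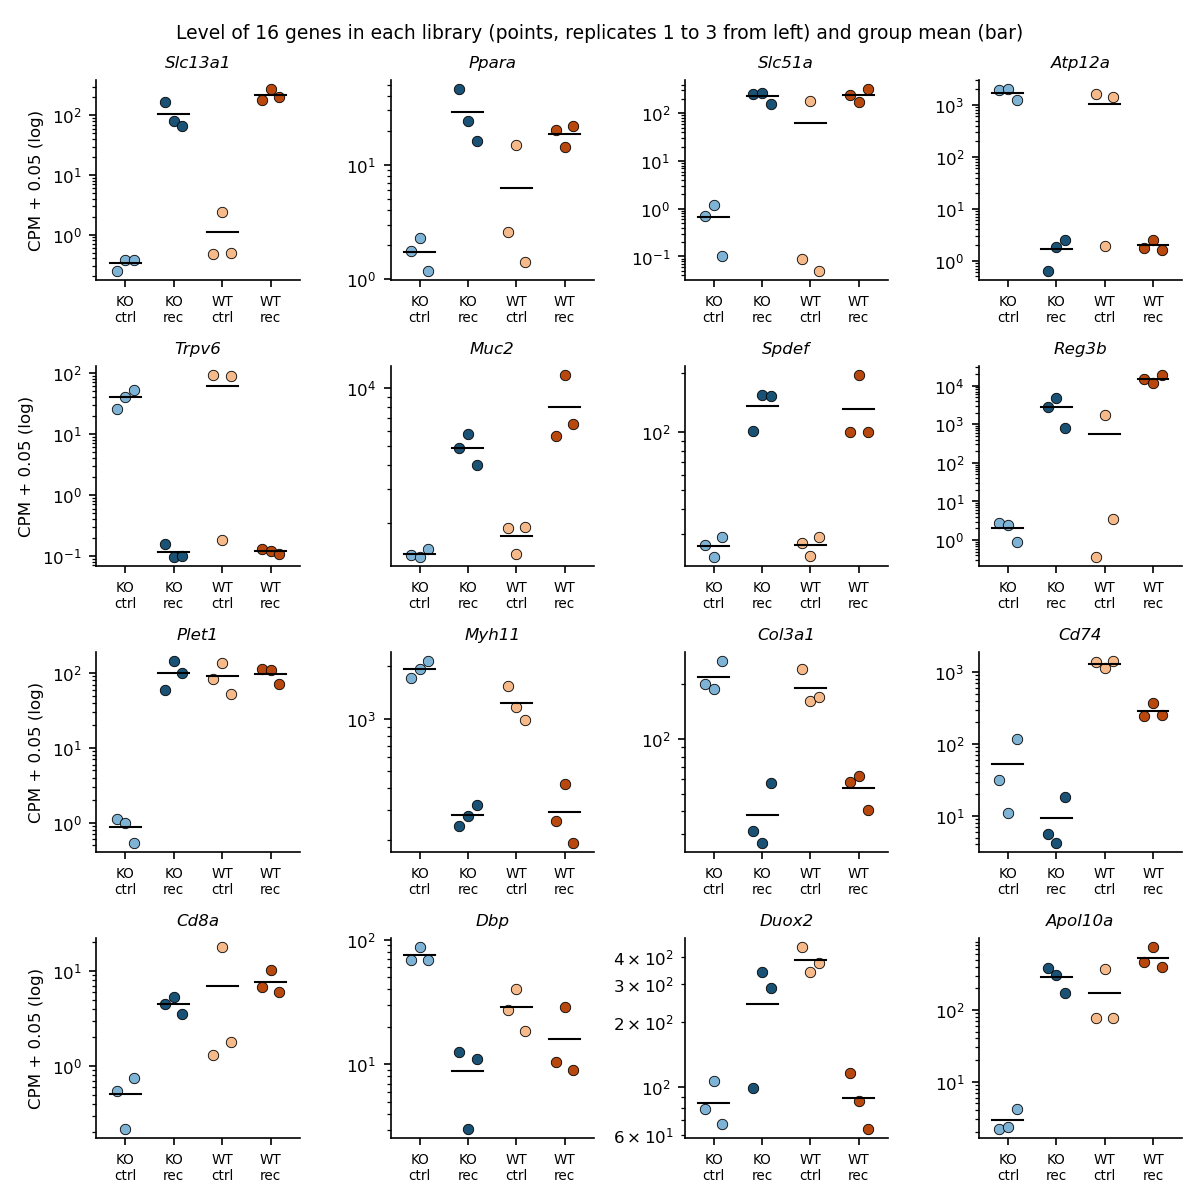
CPM plus 0.05 (log axis) of 16 genes in each *Cldn2*KO and WT control and recovery library, points being replicates 1 to 3 from left to right and bars the group mean. *Slc13a1*, *Muc2*, *Spdef* and *Myh11* separated control from recovery in both genotypes, *Ppara*, *Slc51a*, *Atp12a* and *Trpv6* did so except for WT control 2, and *Duox2* rose in *Cldn2*KO recovery libraries 2 and 3 and fell in WT.

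Electrolyte transport moved in both directions, with 10 of 43 genes higher and 9 lower. The genes that fell included transporters typical of distal colon. *Atp12a*, the colonic proton and potassium ATPase, went from 1914, 2022 and 1219 CPM to 0.589, 1.81 and 2.46 CPM (log2 fold change -10.04 ± 1.59, adjusted p = 0.000998). *Fxyd4*, a regulator of the sodium pump, went from 106, 166 and 136 CPM to 0.161, 0.557 and 0.394 CPM (log2 fold change -8.47 ± 1.19, adjusted p = 0.000552). *Slc26a3*, the chloride and bicarbonate exchanger that absorbs chloride at the apical membrane, fell from 3113, 3875 and 2157 CPM to 655, 735 and 926 CPM (log2 fold change -1.98 ± 0.61, adjusted p = 0.0329). *Car4*, a membrane carbonic anhydrase, went from 1296, 1575 and 1378 CPM to 249, 214 and 257 CPM (log2 fold change -2.56 ± 0.59, adjusted p = 0.00762). The groups did not overlap for any of these 4.

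In the other direction, *Slc9a3*, the sodium and proton exchanger NHE3, rose from 47.3, 41.8 and 18.7 CPM to 593, 512 and 266 CPM (log2 fold change 3.67 ± 0.69, adjusted p = 0.00261). *Cftr*, a chloride channel, rose from 128, 105 and 87.7 CPM to 269, 226 and 244 CPM (log2 fold change 1.2 ± 0.37, adjusted p = 0.0314). *Slc12a2*, the basolateral cotransporter NKCC1, went from 310.2, 348 and 225 CPM to 823, 548 and 400.4 CPM (log2 fold change 1.0 ± 0.33, adjusted p = 0.0442). *Guca2a*, guanylin, was at 491, 621 and 619 CPM and 4672, 4719 and 2383 CPM (log2 fold change 2.77 ± 0.89, adjusted p = 0.0415), and its receptor *Gucy2c* at 183, 178 and 163 CPM and 333, 404 and 325 CPM (log2 fold change 1.02 ± 0.23, adjusted p = 0.00582). The epithelial sodium channel subunit *Scnn1a* was at 149, 209 and 168 CPM and 66.9, 96 and 63.1 CPM, not called (adjusted p = 0.0661), nor was the water channel *Aqp8* at 1041, 1238 and 943 CPM and 29.2, 33.7 and 421 CPM (adjusted p = 0.0732), in which recovery library 3 stood above the other 2. *Slc12a2* was the one called member that the Hox covariate fit also called (adjusted p = 0.0212). Its call held in 8 of the 18 alternative settings and not with *Xist* as a covariate (adjusted p = 0.0743). In that fit the direction turned for *Atp12a*, *Fxyd4*, *Guca2a* and *Scnn1a* (log2 fold changes 0.04, 0.26, -1.01 and 1.4), none of them called. Leaving out 1 of the 6 libraries gave 6 to 8 members higher and 5 to 7 lower.

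Of 11 calcium, magnesium and vitamin D genes 1 rose and 3 fell. *Trpv6*, the apical calcium channel of vitamin D–regulated uptake, went from 25.5, 40.7 and 52.4 CPM to 0.107, 0.0464 and 0.0492 CPM, where the recovery libraries held 2, 1 and 1 reads, and *Trpv3* from 131, 148 and 91.1 CPM to 0.803, 1.39 and 1.08 CPM (log2 fold change -6.81 ± 0.80, adjusted p = 0.000229). *Trpv3* was also called with the Hox covariate (log2 fold change -3.07, adjusted p = 0.0212). *Cnnm4*, a magnesium exporter, fell from 345, 388 and 295 CPM to 172, 203 and 255 CPM (log2 fold change -0.71 ± 0.22, adjusted p = 0.0344). *Slc8a1*, a sodium and calcium exchanger, rose from 7.99, 10.2 and 5.27 CPM to 41.8, 26.4 and 38 CPM (log2 fold change 2.18 ± 0.70, adjusted p = 0.0418), a call that was lost with any 1 of the 6 libraries left out. The directions of *Trpv6* and *Slc8a1* turned with the Hox covariate (log2 fold changes 0.61 and -1.06), neither of them called. *Vdr*, the vitamin D receptor, was at 403, 444 and 349 CPM and 431, 259.99 and 297 CPM (adjusted p = 0.662).

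In bulk tissue, fewer cells of a type and less RNA per cell cannot be told apart, here and for every cell type below. Goblet cell genes were called higher in 11 of 26 and lower in 2, and in 6 to 8 and 1 or 2 with any 1 of the 6 libraries left out. *Muc2*, the gel-forming mucin of the mucus layer, went from 1364, 1340.0 and 1467 CPM to 4879.8, 5799.5 and 4004 CPM (log2 fold change 1.82 ± 0.32, adjusted p = 0.00149). *Spdef*, which drives goblet cell maturation, went from 26.3, 22.7 and 28.7 CPM to 101, 153 and 152 CPM (log2 fold change 2.39 ± 0.25, adjusted p = 8.60e-05). Both were separated without overlap, and WT control 2 held 1384 CPM of *Muc2* and 22.9 CPM of *Spdef*, like the other WT controls. *Atoh1*, the factor that specifies secretory cells, rose by less (34.9, 30.9 and 27.1 CPM to 53, 72.1 and 57.9 CPM, log2 fold change 0.98 ± 0.32, adjusted p = 0.0453), and *Retnlb*, an antibacterial goblet cell product, by more (0.739, 1.39 and 0.323 CPM to 81.1, 73.7 and 458 CPM, log2 fold change 7.96 ± 1.5, adjusted p = 0.00261). *Spdef*, *Sytl2*, a vesicle docking protein, and *Ern2*, a goblet cell stress sensor of the endoplasmic reticulum, stayed called with the Hox covariate (adjusted p = 0.0143, 0.0236 and 0.0167). Of the 18 alternative settings, *Spdef* was called in 18, *Sytl2* in 17 and *Ern2* in 8. With *Xist* as a covariate *Ern2* was not called (adjusted p = 0.204). Of the 2 members that fell, the membrane mucin *Muc3* went from 5479, 4833 and 5405 CPM to 1462, 2502 and 2049.9 CPM (log2 fold change -1.39 ± 0.40, adjusted p = 0.0255). *Mptx1*, a mucosal pentraxin, went from 1751, 1542 and 1242 CPM to 0.214, 0.139 and 0.0984 CPM (log2 fold change -13.25 ± 2.22, adjusted p = 0.00131). *Mptx1* had the largest fall among the nonoverlapping genes with a common symbol and a mean of at least 5 CPM, and WT control 2 lay at 1.7 CPM of it.

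Enteroendocrine genes rose in 10 of 28 and fell in 1. *Chga*, the granule protein of most of these cells, was at 43.6, 32.3 and 51.3 CPM and 201, 265 and 64.5 CPM (log2 fold change 2.06 ± 0.48, adjusted p = 0.00829). *Tph1*, which makes serotonin, was at 12.3, 11.2 and 9.42 CPM and 53, 65.1 and 14.8 CPM (log2 fold change 2.01 ± 0.46, adjusted p = 0.00723). *Gcg*, proglucagon, was at 16, 8.6 and 10.5 CPM and 62.9, 94.3 and 24.4 CPM (log2 fold change 2.37 ± 0.57, adjusted p = 0.00967). Recovery library 3 was the lowest of the recovery libraries for all 3. *Nts*, neurotensin, rose from 0.345, 0.333 and 0.161 CPM to 55, 41.3 and 24.8 CPM (log2 fold change 7.14 ± 1.61, adjusted p = 0.00720). *Insl5*, a peptide of distal colon L cells, fell from 85.5, 79.2 and 70.8 CPM to 7.01, 6.45 and 0.837 CPM (log2 fold change -4.04 ± 1.21, adjusted p = 0.0297), a call that was lost when any 1 of the 6 libraries was left out. With the Hox covariate the log2 fold changes of *Nts* and *Insl5* turned to -0.19 and 5.53, neither of them called. Of 14 tuft cell genes 2 were called higher, *Sh2d6* and *Siglecf*, and 0 lower, with 0 or 1 higher when any 1 of the 6 libraries was left out. Brush border genes were called higher in 11 of 37 and lower in 2, with 6 to 10 higher when 1 of the 6 libraries was left out and 17 without WT control 2. Called members included *Tmigd1*, a membrane adhesion protein (3.65, 5.38 and 2.58 CPM to 994, 588 and 725 CPM, log2 fold change 7.63 ± 1.44, adjusted p = 0.00261), the amino acid transporter subunit *Slc3a1* (0.739, 2.05 and 0.70 CPM to 86.7, 76.8 and 79.7 CPM, log2 fold change 6.13 ± 1.4, adjusted p = 0.00783) and its partner *Slc7a9* (3.6, 2.83 and 3.44 CPM to 20, 20.6 and 10.3 CPM, log2 fold change 2.36 ± 0.48, adjusted p = 0.00347), the last also called with the Hox covariate (adjusted p = 0.00375), while *Slc3a1* and *Myo7b* turned direction in that fit (-0.89 and -0.59) and were not called. Of the structural genes, *Myo7b*, a motor of microvillus tips, was at 124, 122 and 109 CPM and 231, 209 and 267 CPM (log2 fold change 1.0 ± 0.30, adjusted p = 0.0280). *Vil1*, villin, was at 628, 674 and 651 CPM and 493, 708 and 971 CPM (adjusted p = 0.684). *Slc15a1*, the oligopeptide transporter, fell from 339, 436 and 277 CPM to 5.46, 4.41 and 2.36 CPM (log2 fold change -6.43 ± 1.06, adjusted p = 0.00120).

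Antimicrobial genes were called higher in 11 of 32 and lower in 4, with 3 or 4 higher when any 1 control library or recovery library 2 was left out. The Reg3 lectins, which are antibacterial, rose from near 0: *Reg3b* went from 2.76, 2.39 and 0.861 CPM to 2771, 4660.2 and 821 CPM (log2 fold change 10.42 ± 3.09, adjusted p = 0.0290). *Reg3g* went from 1.33, 0.721 and 0.431 CPM to 285, 445 and 155 CPM (log2 fold change 8.45 ± 2.6, adjusted p = 0.0342). The untreated WT control 2 held 1721 CPM of *Reg3b* and 648 CPM of *Reg3g*, far above the other WT controls. *Reg3a* and *Reg1* had no read in control and 203 and 157 reads in recovery, at least 63.6-fold and 49.2-fold higher. Not all of these genes rose. *Lyz2*, lysozyme of macrophages, fell from 76.6, 56.3 and 270.4 CPM to 10.9, 13.2 and 15.2 CPM (log2 fold change -3.36 ± 0.53, adjusted p = 0.000935). *Saa1*, an acute-phase protein made by colonic epithelium, went from 1948, 2439.8 and 2163 CPM to 923, 451 and 309 CPM (log2 fold change -1.96 ± 0.47, adjusted p = 0.00925). *Saa3* rose from 0.394, 0.388 and 0.592 CPM to 16.7, 12.5 and 29.9 CPM (log2 fold change 5.41 ± 1.42, adjusted p = 0.0158). *Dmbt1*, a mucosal scavenger protein, rose from 3139, 3575 and 3171 CPM to 6593, 10509.6 and 6678 CPM (log2 fold change 1.27 ± 0.29, adjusted p = 0.00690).

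**Figure D3:**
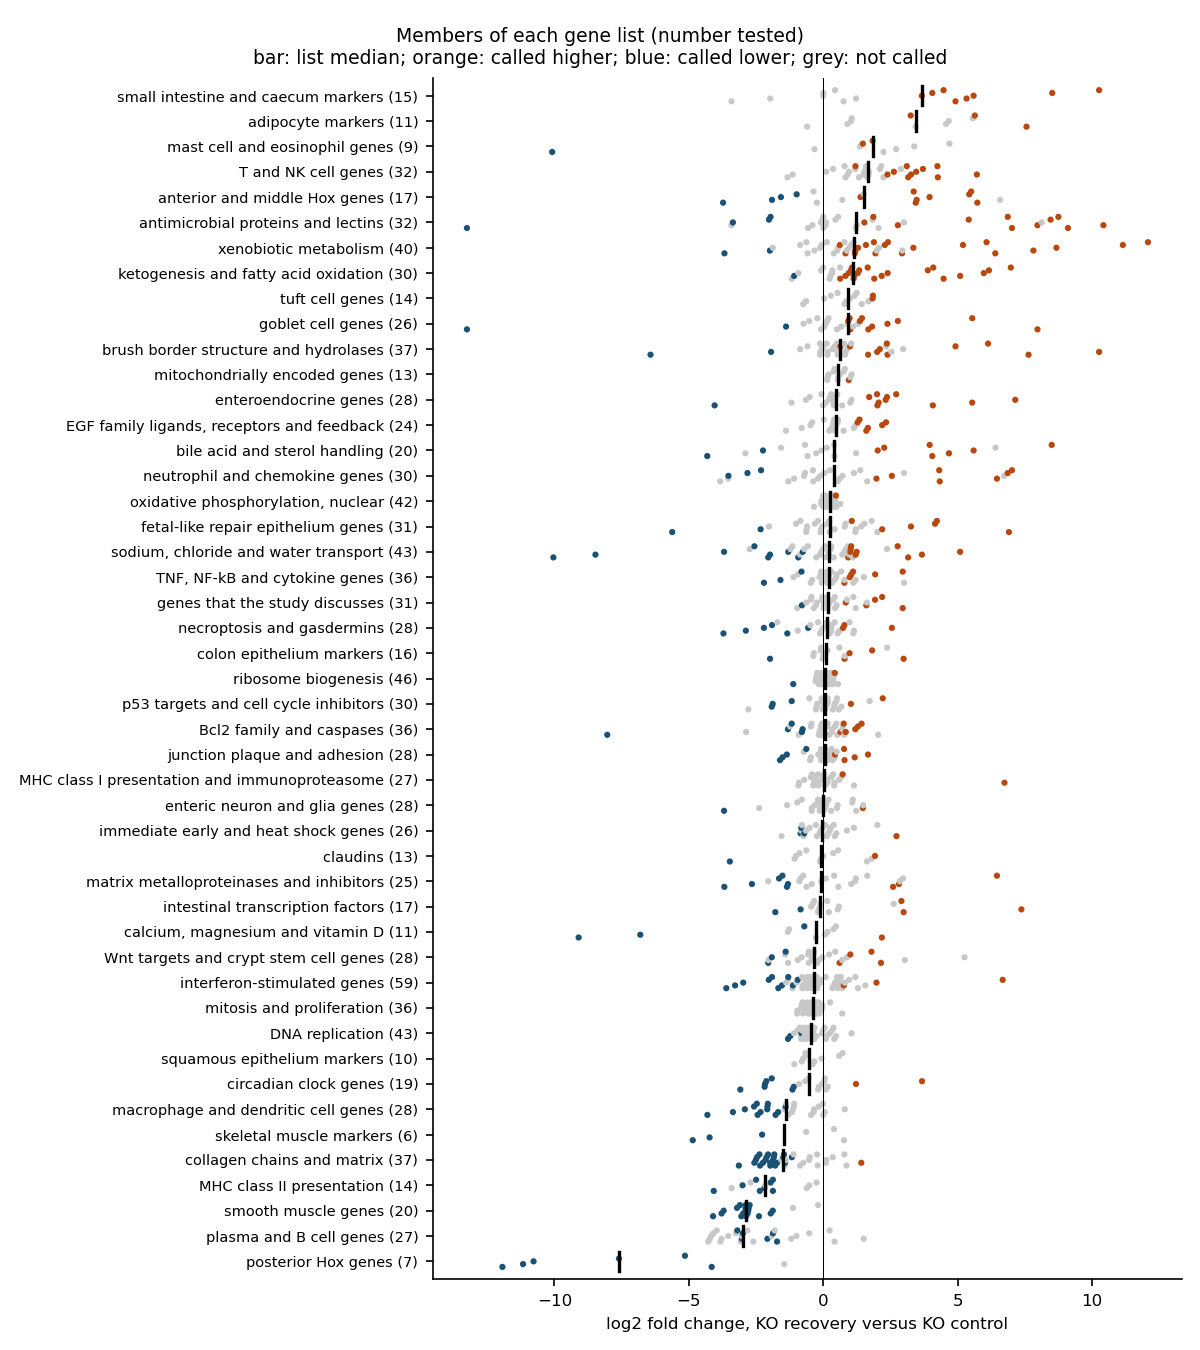
Log2 fold change of *Cldn2*KO recovery over control for each tested member of the gene lists with at least 5 members tested, sorted by the list median (bar), with called members in color. Genes without a read in 1 group are drawn at their fitted value, which is not a bound. Posterior Hox, plasma and B cell, smooth muscle and MHC class II genes lie at the low end, and small intestine and caecum, adipocyte, mast cell and eosinophil, and T and NK cell genes at the high end.

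Of 13 claudins tested, 1 was called higher and 1 lower, a share near that of all genes tested, and the median log2 fold change was -0.07. Without any 1 control library, recovery library 1 or recovery library 3, 0 were called higher. *Cldn15*, which like claudin-2 forms a sodium channel, rose from 35.6, 32.2 and 32.4 CPM to 133, 78.5 and 169 CPM (log2 fold change 1.92 ± 0.57, adjusted p = 0.0296), with WT control 2 at 207 CPM, and *Cldn14*, a low-abundance cation barrier claudin, fell from 3.5, 2.72 and 3.87 CPM to 0.375, 0.418 and 0.0984 CPM (log2 fold change -3.48 ± 0.82, adjusted p = 0.00868). With the Hox covariate the directions of *Cldn15* and *Cldn14* turned (log2 fold changes -0.60 and 1.8, adjusted p = 0.779 and 0.555). The most abundant, *Cldn7* and *Cldn3*, were at 514, 532 and 589.8 CPM and 430.2, 588 and 623 CPM and at 304, 350.3 and 392 CPM and 281, 357 and 323 CPM (adjusted p = 0.991 and 0.780). Among 28 genes of the junction plaque and of adhesion, 5 rose and 4 fell, each by less than 4-fold (3 to 6 and 3 or 4 with any 1 of the 6 libraries left out). *Dsc2*, a desmosomal cadherin, rose from 172, 164 and 131 CPM to 269, 355 and 426 CPM (log2 fold change 1.17 ± 0.26, adjusted p = 0.00649). *Evpl*, envoplakin, fell from 66.1, 77.5 and 73.5 CPM to 18.8, 17.4 and 34.7 CPM (log2 fold change -1.61 ± 0.31, adjusted p = 0.00242). *Cdh1*, E-cadherin, was at 1126, 1070.0 and 930.0 CPM and 571, 827 and 874 CPM (adjusted p = 0.156). In WT 1 of these 28 rose and 15 fell.

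Genes of wound repair rose in part. Of 31 fetal-like repair epithelium genes, which crypts re-express after injury, 6 were called higher and 2 lower, with 3 higher when any 1 control library, recovery library 2 or recovery library 3 was left out and 1 lower without any 1 of the 6. *Plet1*, a marker of regenerating colon epithelium, was at 1.08, 0.943 and 0.484 CPM in control and 59.8, 143 and 101 CPM in recovery (log2 fold change 6.9 ± 1.05, adjusted p = 0.000837), and in WT it was already at 82.8, 138 and 52.5 CPM in control, although the test of the difference between genotypes did not pass (adjusted p = 0.0520). *Itga2*, a collagen receptor, rose from 3.8, 3.44 and 2.64 CPM to 58.9, 73.6 and 52.5 CPM (log2 fold change 4.22 ± 0.58, adjusted p = 0.000496). *Emp1* went from 134, 243 and 135 CPM to 1834, 3012 and 4258 CPM (log2 fold change 4.15 ± 0.97, adjusted p = 0.00868), with 6472 CPM in WT control 2. *Anxa8* fell from 168, 264 and 216 CPM to 3.43, 3.99 and 5.76 CPM (log2 fold change -5.62 ± 0.91, adjusted p = 0.00106). *Ly6a*, which encodes SCA-1, was at 353, 451 and 535 CPM and 158, 315 and 388 CPM and was not called (adjusted p = 0.455). EGF family genes were called higher in 6 of 24 and lower in 0. *Egf* went from 2.66, 2.22 and 1.29 CPM to 7.34, 7.79 and 3.64 CPM (log2 fold change 1.6 ± 0.34, adjusted p = 0.00493). *Ereg*, epiregulin, went from 9.46, 5.6 and 7.64 CPM to 11.7, 27.2 and 64.8 CPM (log2 fold change 2.19 ± 0.71, adjusted p = 0.0429). *Hbegf* went from 14.1, 26.4 and 23.8 CPM to 25.6, 66.9 and 111 CPM (log2 fold change 1.66 ± 0.53, adjusted p = 0.0384). Recovery libraries 2 and 3, those with high *Xist*, carried the rise of *Ereg* and *Hbegf*, while library 1 was near the controls. Without any 1 control library, recovery library 2 or recovery library 3, 2 or 3 of the 24 were called higher. *Etv5*, a target of growth factor signaling, rose from 4.14, 3.72 and 5.11 CPM to 19.4, 14.8 and 31.3 CPM (log2 fold change 2.33 ± 0.57, adjusted p = 0.0103). The receptor *Egfr* was at 41.9, 39.1 and 32.7 CPM and 42.4, 52.5 and 52.6 CPM (adjusted p = 0.194).

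Whether proliferation genes differed turned on recovery library 3. With all libraries, 0 of 36 mitosis genes were called in either direction by edgeR (1 had an unadjusted p under 0.05, and the median log2 fold change was -0.37), and of 43 DNA replication genes 0 were higher and 3 lower. Without recovery library 3, 29 of the 36 and 24 of the 43 were called lower, and without any other 1 of the 6 libraries 0 of the 36 and 0 or 1 of the 43 were. Limma-voom with sample weights called 20 of the 36 lower and 1 higher, and DESeq2 called 0 lower and 1 higher. *Mki67*, present in cycling cells, was at 193, 163 and 190.2 CPM in control and 49.3, 41.3 and 188 CPM in recovery (log2 fold change -0.97 ± 0.46, adjusted p = 0.156), so that recovery library 3 matched the controls and the other 2 lay below. *Birc5*, which encodes Survivin, showed the same split (27.1, 17.8 and 32.8 CPM and 9.96, 7.24 and 40 CPM, adjusted p = 0.590). *Prim1*, a DNA primase subunit, fell from 23.6, 22.6 and 25.7 CPM to 6.75, 6.63 and 17.2 CPM (log2 fold change -1.23 ± 0.35, adjusted p = 0.0224). Stem cell and Wnt genes gave 4 higher and 3 lower of 28 (1 to 3 higher with any 1 of the 6 libraries left out, and 1 lower, or 5 without recovery library 3), with *Cd44* higher (23.3, 16.1 and 25.7 CPM to 69, 77.8 and 141 CPM, log2 fold change 2.14 ± 0.40, adjusted p = 0.00236) and *Ccnd2* lower (363, 332 and 356 CPM to 87.7, 128 and 183 CPM, log2 fold change -1.4 ± 0.26, adjusted p = 0.00238). The cell cycle inhibitor *Cdkn1a* was at 216, 229 and 206 CPM and 175, 279.5 and 206 CPM (adjusted p = 0.959), and among 30 p53 targets 2 rose and 3 fell, with 0 called higher without any 1 control library or recovery library 3. The counts of stem cell and Wnt genes and of p53 targets compare with 19.4% called over all genes tested. Of the ribosome biogenesis genes 1 of 46 rose (0 without any 1 control library, recovery library 1 or recovery library 3) and 1 fell, against 15 and 1 in WT, and *Nifk* was at 44.7, 51.4 and 47.6 CPM and 53, 57.4 and 58.5 CPM (adjusted p = 0.370).

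Cell death genes were split in direction. Of 36 genes of the Bcl2 family and caspases, 6 rose and 5 fell, with 1 called higher without control library 3, 3 without recovery library 2, and 2 called lower without control library 1. *Casp8*, which starts death receptor signaling, rose from 140.2, 142 and 134 CPM to 169, 243 and 237 CPM (log2 fold change 0.64 ± 0.16, adjusted p = 0.0130). *Casp2* went from 66.9, 64 and 53.4 CPM to 174, 166 and 154 CPM (log2 fold change 1.42 ± 0.23, adjusted p = 0.000963). The antiapoptotic *Mcl1* fell from 977, 1087 and 795 CPM to 378, 389 and 383 CPM (log2 fold change -1.31 ± 0.17, adjusted p = 0.000296), as did the proapoptotic *Pmaip1* (70.3, 75.6 and 54.2 CPM to 31.4, 23.7 and 33.6 CPM, log2 fold change -1.17 ± 0.35, adjusted p = 0.0278). *Bcl2* was at 15.7, 14 and 13.6 CPM and 17.9, 27.8 and 12.8 CPM (adjusted p = 0.238). Necroptosis and gasdermin genes rose in 3 and fell in 6 of 28 (1 to 6 and 2 to 6 with any 1 of the 6 libraries left out). *Gsdmc4*, an epithelial gasdermin, went from 1712, 2022 and 1507 CPM to 40.9, 102 and 569 CPM (log2 fold change -2.88 ± 0.92, adjusted p = 0.0402). *Il18*, an inflammasome cytokine, went from 163, 159 and 130.2 CPM to 37.8, 30.6 and 29.4 CPM (log2 fold change -2.21 ± 0.35, adjusted p = 0.000935). *Ripk3* and *Mlkl*, which execute necroptosis, were at 19.6, 19.1 and 22.6 CPM and 20.3, 45.4 and 55 CPM and at 20.5, 14.8 and 20.3 CPM and 17.5, 26.8 and 40.1 CPM, neither of them called (adjusted p = 0.0757 and 0.0693).

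Of 36 TNF, NF-κB and cytokine genes, 6 rose and 3 fell, and 3 rose without control library 1, control library 2 or recovery library 2. *Tnf* was at 0.246, 0.666 and 1.13 CPM and 0.857, 12 and 2.95 CPM (log2 fold change 2.95 ± 0.99, adjusted p = 0.0493), a rise carried by recovery library 2 and called in 6 of the 18 alternative settings. *Nfkbia*, which encodes an inhibitor of NF-κB, went from 49.3, 49 and 55.7 CPM to 64.3, 184 and 68.5 CPM (log2 fold change 1.04 ± 0.34, adjusted p = 0.0430), highest in recovery library 2. *Nfkbiz* went from 48.8, 60.7 and 52.7 CPM to 90.7, 113 and 116 CPM (log2 fold change 0.98 ± 0.16, adjusted p = 0.00107). *Socs3*, an inhibitor of STAT3 signaling, rose from 7.49, 8.21 and 7.37 CPM to 22.2, 36.9 and 28.7 CPM (log2 fold change 1.93 ± 0.44, adjusted p = 0.00708), while *Stat3* itself was at 101, 96.8 and 94.4 CPM and 77.1, 132 and 122 CPM (adjusted p = 0.568). *Nfkb1*, *Rela* and *Il1b* were not called (adjusted p = 0.104, 0.955 and 0.493). The neutrophil gene *S100a8* had 2 reads in control and 301 in recovery, a ratio of 141 with a counting interval of 38.8 to 1173, and *S100a9* 2 and 333 reads, a ratio of 156 (43.0 to 1297). Recovery library 2 held most of them (1.07, 10.4 and 2.76 CPM of *S100a8*). *Ly6g*, named as a neutrophil surface marker, was at 343, 529 and 403 CPM in control and 14.7, 63.7 and 31.2 CPM in recovery and was not called (adjusted p = 0.0594). With the Hox covariate its log2 fold change turned to 6.43 and was not called either. It was abundant in control libraries that together held 2 reads of *S100a8*, and whether it tracked neutrophils here was not tested. Of 30 neutrophil and chemokine genes 7 rose and 3 fell, and 3 or 4 rose without any 1 control library or recovery library 2. The summed level of the list was 973 to 1240.1 CPM in control and 512 to 850.5 CPM in recovery.

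Immune cell lists diverged by cell type. T and NK cell genes were called higher in 11 of 32 and lower in 0, with the markers of the cells themselves at low levels: *Cd3e*, a subunit of the T cell receptor complex, was at 0.246, 0.0555 and 0.108 CPM and 2.09, 1.95 and 1.62 CPM (log2 fold change 3.7 ± 0.99, adjusted p = 0.0161). *Cd8a* was at 0.493, 0.166 and 0.70 CPM and 4.5, 5.24 and 3.49 CPM (log2 fold change 3.26 ± 0.85, adjusted p = 0.0143). *Gzmb*, granzyme B, was at 0.444, 0.111 and 0.431 CPM and 7.28, 6.82 and 5.07 CPM (log2 fold change 4.24 ± 1.02, adjusted p = 0.00983). *Btnl1*, an epithelial protein that supports intraepithelial lymphocytes and no T cell marker, was at higher levels. It rose from 14.8, 10.3 and 11.6 CPM to 149.7, 117 and 136 CPM (log2 fold change 3.45 ± 0.82, adjusted p = 0.00963). WT control 2 lay on the recovery side for all 11, with 17.7 CPM of *Cd8a*. With the Hox covariate 0 of the 32 were called, against 0.773% of all genes tested. In WT 0 of the 32 were called higher. Without control library 1 or 2, 6 and 4 were called higher, and without WT control 2, 18.

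Macrophage genes were called lower in 13 of 28 and higher in 0. *Csf1r*, the growth factor receptor of macrophages, fell from 5.32, 4.61 and 9.47 CPM to 2.84, 1.25 and 1.97 CPM (log2 fold change -1.68 ± 0.36, adjusted p = 0.00453). *C1qc*, a complement subunit, went from 10.4, 8.93 and 27.7 CPM to 2.78, 1.76 and 1.67 CPM (log2 fold change -2.92 ± 0.46, adjusted p = 0.000898). *Mrc1*, the mannose receptor, went from 14.2, 13 and 17.7 CPM to 3.91, 2.69 and 2.31 CPM (log2 fold change -2.33 ± 0.34, adjusted p = 0.000623). MHC class II genes fell in 8 of 14 and rose in 0, with a median log2 fold change of -2.18, but 2 of 14 fell without control library 3, recovery library 1 or recovery library 2. *Cd74*, the invariant chain, was at 31.3, 10.8 and 117 CPM and 5.46, 4.13 and 18.5 CPM (log2 fold change -2.5 ± 0.68, adjusted p = 0.0198), with overlap between the groups. *H2-Aa* was at 44.5, 16.8 and 194 CPM and 9.64, 8.44 and 13.8 CPM (log2 fold change -3.0 ± 0.64, adjusted p = 0.00524). *Cd74* in WT was at 1376, 1139.7 and 1410.4 CPM in control and 248, 369 and 249 CPM in recovery, so both *Cldn2*KO groups lay below both WT groups. Plasma and B cell genes fell in 6 of 27, of which *Igkc* was at 41.8, 6.1 and 118 CPM and 11.8, 14.2 and 13.3 CPM (log2 fold change -2.08 ± 0.65, adjusted p = 0.0376). The control group was uneven here, and the groups did not overlap for 3 of the 27 genes, against 40.3% of all genes tested. Without control library 3 or any 1 recovery library, 0 or 1 of the 27 was called lower, and without control library 2, 14 were.

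Interferon-stimulated genes were called lower in 10 of 59 and higher in 3, together near the 19.4% called over all genes tested. They were called lower in 4 or 5 without control library 3, recovery library 1 or recovery library 2. The guanylate-binding protein *Gbp2* fell from 37.6, 42.1 and 109 CPM to 10.1, 5.01 and 8.86 CPM (log2 fold change -2.98 ± 0.66, adjusted p = 0.00666). *Gbp7* went from 15.1, 16.8 and 17.3 CPM to 5.84, 4.45 and 5.12 CPM (log2 fold change -1.67 ± 0.27, adjusted p = 0.000935). *Zbp1*, a nucleic acid sensor, went from 26.4, 32.2 and 47.7 CPM to 7.87, 5.47 and 15 CPM (log2 fold change -1.91 ± 0.52, adjusted p = 0.0199). Against this, *Ifi47* rose from 6.51, 3.61 and 9.9 CPM to 34.1, 21.1 and 23.8 CPM (log2 fold change 1.98 ± 0.43, adjusted p = 0.00537). *Apol10a* went from 2.12, 2.27 and 4.14 CPM to 388, 309 and 174 CPM (log2 fold change 6.67 ± 0.70, adjusted p = 9.96e-05). The summed level of the list overlapped between groups (1632 to 1979 CPM in control, 1418 to 1914 CPM in recovery). Of 27 MHC class I genes 2 rose and 0 fell. *Erap1*, a peptide-trimming enzyme, went from 73.2, 83.1 and 74.2 CPM to 149.8, 117 and 113 CPM (log2 fold change 0.72 ± 0.13, adjusted p = 0.00222). *H2-T3*, a nonclassical class I molecule of gut epithelium, went from 0.789, 1.78 and 0.538 CPM to 143, 87.2 and 100.4 CPM (log2 fold change 6.74 ± 1.54, adjusted p = 0.00776).

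Smooth muscle genes fell nearly as a block. Of 20 tested, 18 fell and 0 rose, with a median log2 fold change of -2.88, and the summed level went from 10718 to 13536 CPM in control to 1308 to 2161 CPM in recovery. *Myh11*, smooth muscle myosin, was at 1712, 1929 and 2139 CPM and 241, 276 and 319 CPM (log2 fold change -2.79 ± 0.51, adjusted p = 0.00192). *Des*, desmin, was at 1099.6, 1224 and 1515 CPM and 80.5, 121 and 245 CPM (log2 fold change -3.1 ± 0.70, adjusted p = 0.00729). *Acta2*, smooth muscle actin, was at 1013, 1061 and 1371 CPM and 113, 156 and 195 CPM (log2 fold change -2.89 ± 0.50, adjusted p = 0.00134). *Kcnmb1*, a potassium channel subunit, fell from 21.6, 24.3 and 21.3 CPM to 1.29, 1.9 and 1.67 CPM (log2 fold change -3.78 ± 0.51, adjusted p = 0.000378). Every recovery library was below every control library for these 4 genes, and 18 of 20 were called lower whichever of the 6 libraries was left out. WT control 2 lay on the recovery side for 4 of the 18 called members, and in WT 16 of 20 fell. With the Hox covariate the median stayed at -2.54 while 0 of the 20 were called, against 0.773% of all genes tested.

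Collagen and matrix genes fell in 21 of 37 and rose in 1. *Col3a1*, a fibrillar collagen chain, went from 201, 188 and 266 CPM to 31.2, 26.8 and 57.2 CPM (log2 fold change -2.51 ± 0.35, adjusted p = 0.000496). *Fn1*, fibronectin, went from 313, 320.4 and 312 CPM to 23.9, 33.4 and 49.8 CPM (log2 fold change -3.14 ± 0.44, adjusted p = 0.000496). *Postn*, periostin, went from 305, 298 and 419 CPM to 65.3, 68.9 and 62.9 CPM (log2 fold change -2.37 ± 0.48, adjusted p = 0.00382). Recovery lay below control in every library for these 3. The single riser was *Thbs1*, thrombospondin-1, from 42.1, 31.4 and 27.8 CPM to 40.9, 106 and 123 CPM (log2 fold change 1.41 ± 0.45, adjusted p = 0.0377), a call kept without recovery library 1 and lost without any other 1 of the 6. In the list of enteric neuron and glia genes 2 of 28 were called, against 19.4% of all genes tested, and the median log2 fold change was -0.0013. The called genes were *Kit*, a receptor of pacemaker cells, higher (15.8, 14.5 and 13.1 CPM to 44.8, 52.8 and 22.7 CPM, log2 fold change 1.47 ± 0.35, adjusted p = 0.00846) and *Ano1*, a chloride channel of pacemaker cells and epithelium, lower (239, 250.4 and 213 CPM to 21, 15.1 and 18.2 CPM, log2 fold change -3.69 ± 0.68, adjusted p = 0.00230). Matrix metalloproteinases and their inhibitors gave 3 higher and 6 lower of 25 (1 to 3 and 2 to 4 with any 1 of the 6 libraries left out), with *Mmp28* higher (2.76, 3.22 and 2.74 CPM to 15.7, 13.8 and 23.2 CPM, log2 fold change 2.59 ± 0.34, adjusted p = 0.000296) and *Timp3* lower (41.4, 45.9 and 34.4 CPM to 13.1, 17.3 and 12 CPM, log2 fold change -1.52 ± 0.42, adjusted p = 0.0208).

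Of 11 adipocyte markers 3 rose and 0 fell, with 1 called higher without any 1 control library, recovery library 2 or recovery library 3, 4 without recovery library 1 and 6 without WT control 2. *Cidec*, a lipid droplet protein, was at 0.641, 1.11 and 0.861 CPM and 34.4, 44.5 and 51.2 CPM (log2 fold change 5.64 ± 1.1, adjusted p = 0.00321). *Adipoq*, adiponectin, was high only in recovery libraries 2 and 3, those with high *Xist*, at 0.0535, 5.43 and 19.9 CPM in recovery against 0.394, 0.111 and 0 CPM in control (adjusted p = 0.0681). WT control 2 held 61 CPM of *Adipoq* and 55.3 CPM of *Cidec*. Of 6 skeletal muscle markers 3 fell, *Ckm* from 8.38, 12.5 and 15.3 CPM to 2.03, 3.25 and 2.17 CPM (log2 fold change -2.28 ± 0.58, adjusted p = 0.0128). Of 4 exocrine pancreas and liver markers 3 fell. *Cela1*, an elastase, went from 523, 522 and 629 CPM to 51.1, 56.6 and 60.8 CPM (log2 fold change -3.31 ± 0.52, adjusted p = 0.000919). The defining pancreas markers *Prss2* and *Cpa1* were at or near 0 in all 6 libraries. Of 9 mast cell and eosinophil genes 2 rose (1 without control library 1, control library 2 or recovery library 2) and 1 fell, and the faller, the mast cell chymase *Cma1*, had 368 reads in control and 0 in recovery, at least 131-fold lower. Of 10 squamous markers edgeR called 0, with *Krt14* at 2.61, 4.72 and 5.92 CPM and 5.52, 4.04 and 0.984 CPM (adjusted p = 0.840). How much muscle, fat or other tissue each sample held was not measured, and its part in these lists was not tested.

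Of 42 nuclear genes of oxidative phosphorylation 1 rose, *Ndufv1* (134, 123 and 159 CPM to 173, 201 and 203 CPM, log2 fold change 0.47 ± 0.15, adjusted p = 0.0354), and of 13 mitochondrially encoded genes 1 rose, *mt-Nd5* (3972, 3844 and 2495 CPM to 7699.8, 6932 and 5257 CPM, log2 fold change 0.95 ± 0.30, adjusted p = 0.0382). With any 1 of the 6 libraries left out, 0 to 2 of the 42 and 0 or 1 of the 13 were called higher. The log2 fold change was positive for 37 of the 42 and 13 of the 13. The summed level of the 13 was 37210.1 to 61621 CPM in control and 72064 to 99645 CPM in recovery, without overlap. In WT controls 1, 2 and 3 it was 39176, 96271 and 42546 CPM, so that WT control 2 lay with the recovery libraries. The part of this shift in the other results was not tested. Of 26 immediate early and heat shock genes 1 rose and 3 fell (0 to 2 and 1 to 3 with any 1 of the 6 libraries left out), and the chaperone *Hspa8* was at 1911, 2053 and 2650.5 CPM and 1058, 1459 and 1236 CPM (log2 fold change -0.82 ± 0.19, adjusted p = 0.00840).

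Clock and Bmal1 activate their targets through a DNA element, the E-box CACGTG, and the target proteins feed back on them, so that their transcripts cycle over the day. Of 19 clock genes tested, 2 rose and 7 fell (1 or 2 and 5 to 9 with any 1 of the 6 libraries left out). *Dbp*, an output transcription factor, fell from 68.6, 86.4 and 68.9 CPM to 12.4, 2.97 and 11 CPM (log2 fold change -3.08 ± 0.66, adjusted p = 0.00546). *Nr1d1*, the repressor Rev-erbα, went from 106, 98.4 and 87.3 CPM to 20.5, 14.8 and 32 CPM (log2 fold change -2.12 ± 0.42, adjusted p = 0.00321). *Per2*, a core repressor, went from 118, 130.0 and 99.6 CPM to 51.6, 56.9 and 48.5 CPM (log2 fold change -1.15 ± 0.20, adjusted p = 0.00133). The groups did not overlap for these 3 genes. *Ciart*, a clock-associated repressor, fell from 24.7, 25.2 and 27 CPM to 5.35, 5.61 and 5.95 CPM (log2 fold change -2.18 ± 0.50, adjusted p = 0.00745). *Tef*, a relative of *Dbp*, went from 203, 222 and 185 CPM to 130.3, 71.7 and 83.1 CPM (log2 fold change -1.1 ± 0.34, adjusted p = 0.0319). *Bhlhe41*, which itself binds E-boxes, went from 1.28, 3.16 and 2.74 CPM to 0.589, 0.649 and 0.344 CPM (log2 fold change -2.17 ± 0.53, adjusted p = 0.0106). All of these fell without overlap. The opposing genes rose: *Nfil3*, which represses the sites that Dbp activates, from 1.48, 0.61 and 1.08 CPM to 11.3, 20 and 9.4 CPM (log2 fold change 3.67 ± 0.58, adjusted p = 0.000874). *Cry1*, a late-phase repressor, went from 14.8, 20.2 and 20.8 CPM to 32.3, 59.5 and 37.6 CPM (log2 fold change 1.22 ± 0.35, adjusted p = 0.0237). *Hlf* was the remaining member that fell (6.46, 7.82 and 9.36 CPM to 2.84, 1.99 and 1.43 CPM, log2 fold change -1.92 ± 0.50, adjusted p = 0.0141). WT control 2 lay on the recovery side for 1 of the 9. Time of day at dissection was not given in the sources used here, and its part was not tested. In WT 1 of the 19 clock genes was called higher and 4 lower, with a median log2 fold change of -0.43 against -0.55 in *Cldn2*KO. In WT, *Ciart* was at 6.13, 14.4 and 4.94 CPM in control and 3.54, 9.83 and 4.73 CPM in recovery and *Dbp* at 27.2, 40.3 and 18.4 CPM and 10.5, 28.7 and 8.99 CPM, neither called (adjusted p = 0.502 and 0.355), and the test between genotypes passed for neither (adjusted p = 0.212 and 0.198).

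The promoters of the called clock genes are shown where they hold an E-box, since this is the letter pattern that the clock's activators are known for. The 250 bases before the annotated start of transcription were read from RefSeq promoter windows (GRCm38.p6) for 8 of the 9 called genes and searched for CACGTG, which reads the same on both strands. Of these 8, 4 held it, 3 boxes in *Ciart* at 116, 58 and 44 bases before the start and 1 box each in *Tef* at 127, *Bhlhe41* at 153 and *Cry1* at 60 bases. The windows are written 5′ to 3′ on the strand of the gene, with each E-box in capitals: *Ciart* at chr3:95882229-95882478 (minus strand), *Tef* at chr15:81802423-81802672 (plus strand), *Bhlhe41* at chr6:145865421-145865670 (minus strand) and *Cry1* at chr10:85185055-85185304 (minus strand).
Ciart: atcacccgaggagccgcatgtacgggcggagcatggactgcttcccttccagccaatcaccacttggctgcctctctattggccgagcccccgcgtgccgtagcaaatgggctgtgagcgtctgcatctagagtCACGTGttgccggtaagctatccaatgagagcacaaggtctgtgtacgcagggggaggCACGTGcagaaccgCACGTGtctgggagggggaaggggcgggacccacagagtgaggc
Tef: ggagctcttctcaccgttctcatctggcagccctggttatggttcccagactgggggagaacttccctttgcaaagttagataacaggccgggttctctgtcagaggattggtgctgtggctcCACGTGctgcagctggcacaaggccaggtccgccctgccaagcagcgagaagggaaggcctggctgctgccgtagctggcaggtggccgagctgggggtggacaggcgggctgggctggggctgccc
Bhlhe41: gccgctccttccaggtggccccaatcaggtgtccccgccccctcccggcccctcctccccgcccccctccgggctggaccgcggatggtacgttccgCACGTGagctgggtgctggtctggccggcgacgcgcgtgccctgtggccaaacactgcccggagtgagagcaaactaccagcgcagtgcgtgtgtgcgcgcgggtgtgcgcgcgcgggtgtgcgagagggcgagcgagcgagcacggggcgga
Cry1: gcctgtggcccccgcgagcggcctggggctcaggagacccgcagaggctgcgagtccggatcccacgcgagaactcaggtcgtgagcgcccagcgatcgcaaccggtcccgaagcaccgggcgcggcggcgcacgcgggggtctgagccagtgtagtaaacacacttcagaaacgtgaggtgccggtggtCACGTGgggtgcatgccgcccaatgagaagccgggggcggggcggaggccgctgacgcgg
Windows of the other 4, *Nr1d1*, *Dbp*, *Hlf* and *Nfil3*, held no CACGTG in these 250 bases. Of all 27025 genes with such a window, 6.86% held it, of the genes tested 9.28% (1133 of 12211), and of the clock genes tested 31.2% (5 of 16). A match is a run of letters, not a bound site, and both genes that rose and genes that fell carried it.

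The genes called both with and without the Hox covariate were few, and those given here were chosen after their values were seen. Of the 62 that kept their direction, 31 rose and 31 fell. *Ddah1* (ENSMUSG00000028194, chr3:145758675-145894277), which degrades an inhibitor of nitric oxide synthase, rose from 15.9, 10.2 and 14.9 CPM to 85.6, 127 and 125 CPM (log2 fold change 3.04 ± 0.22, adjusted p = 6.74e-06) and had a log2 fold change of 3.51 with the covariate (adjusted p = 0.00141). *Rdx*, radixin, which ties membrane proteins to actin, went from 84.9, 85.3 and 70.9 CPM to 8.73, 8.07 and 7.23 CPM (log2 fold change -3.33 ± 0.27, adjusted p = 9.05e-06). *Txndc5*, a protein disulfide isomerase, went from 213, 188 and 202 CPM to 350.4, 388 and 312 CPM (log2 fold change 0.80 ± 0.20, adjusted p = 0.0107). *Slc20a1*, a phosphate transporter, went from 1022, 792 and 512 CPM to 179, 141 and 218 CPM (log2 fold change -2.11 ± 0.48, adjusted p = 0.00727). *Ffar2*, a receptor for short-chain fatty acids, went from 2.51, 1.89 and 3.55 CPM to 16.3, 20.6 and 12.4 CPM (log2 fold change 2.63 ± 0.37, adjusted p = 0.000482). These genes did not overlap between groups. The 5 whose direction turned were *Anxa3*, *Pla2g2f*, *Gm11430*, *Nceh1* and *Capn13*. For *Anxa3* the levels were 440.3, 497 and 442 CPM and 75.9, 96.6 and 102 CPM (log2 fold change -2.33 ± 0.67, adjusted p = 0.0259), and WT control 2 lay at 18.1 CPM, below all recovery libraries of both genotypes.

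The response of WT colon was compared to ask which differences both genotypes shared. WT recovery and WT control share no library with the *Cldn2*KO groups. In WT, 3767 genes were called (22.2% of those tested), and 1486 were called in both genotypes (45.2% of the *Cldn2*KO calls, 39.4% of the WT calls), 1453 of them in the same direction. Across all genes tested the log2 fold changes of the 2 genotypes correlated with Pearson's r of 0.704, where the genes of a library share its depth and composition and are not independent replicates. When WT control 2 was left out of the WT comparison, 4315 of the 16937 genes were called in WT (4350 with the gene filter run anew). Of these, 1914 (44.4%) were among the 3291 *Cldn2*KO calls made with all libraries (58.2% of those), 1900 in the same direction, and r was 0.805. The correlation was thus higher when the untreated library without *Hoxb13* and *Hoxd13* was left out. For instance, *Slc51a* had a WT log2 fold change of 1.99 ± 1.42 (adjusted p = 0.336) with WT levels of 0.0393, 184 and 0 CPM in control and 239, 171 and 321 CPM in recovery, so that 2 of the 3 WT controls lay far below the recovery libraries, as in *Cldn2*KO.

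**Figure D4:**
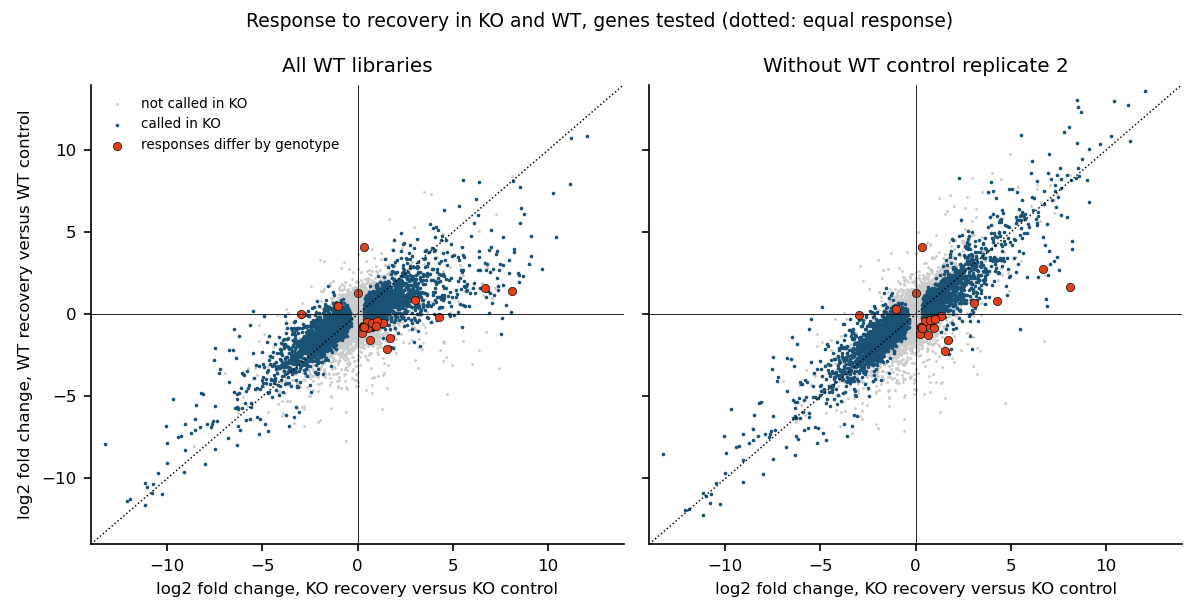
Log2 fold change of recovery over control in WT (vertical axis) against *Cldn2*KO (horizontal axis) for the genes tested, with all WT libraries (left, r = 0.704) and without WT control 2 (right, r = 0.805). The dotted line marks an equal response, and the 22 genes with a called difference between genotypes lie off it.

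A difference in response between genotypes was called for 22 genes (0.13% of those tested), 18 with a higher and 4 with a lower response in *Cldn2*KO, while 3141 genes had an unadjusted p under 0.05. The count turned on the method: DESeq2 called 931 genes, limma-voom 1754, and edgeR with *Xist* as a covariate 4. In 15 of the 18 with a higher response the sign was positive in *Cldn2*KO and negative in WT, and 7 genes were called in opposite directions in the 2 genotypes. *Duox2*, the epithelial oxidase that makes hydrogen peroxide, went from 78.8, 106 and 67.4 CPM to 98.1, 342 and 286 CPM in *Cldn2*KO (log2 fold change 1.53 ± 0.42, adjusted p = 0.0201) and from 442, 339 and 374 CPM to 116, 85.7 and 63.5 CPM in WT (log2 fold change -2.12 ± 0.43, adjusted p = 0.00409). The difference between the 2 responses was 3.65 ± 0.60 on the log2 scale (adjusted p = 0.0361). Recovery library 1 stayed within the range of the *Cldn2*KO controls, and the rise rested on recovery libraries 2 and 3, those with high *Xist*. The rise of *Duox2* in *Cldn2*KO was called in 10 of the 18 alternative settings. It was not called with *Xist* as a covariate (log2 fold change 1.31, adjusted p = 0.134). *Nfkbiz*, an inflammation-induced regulator of NF-κB, fell in WT from 146, 115 and 156 CPM to 92.4, 80.5 and 80.7 CPM, against its rise in *Cldn2*KO (difference 1.7 ± 0.23, adjusted p = 0.0155). *Zc3h12a*, an RNase that degrades cytokine transcripts, was at 11.6, 14.4 and 16.8 CPM and 32.9, 69.5 and 36.7 CPM in *Cldn2*KO and 81.7, 53.6 and 68.9 CPM and 30.6, 23.9 and 21.4 CPM in WT (difference 3.12 ± 0.45, adjusted p = 0.0210). *Btnl2*, a butyrophilin-like regulator of T cells, was at 0.641, 0.832 and 1.35 CPM and 16.6, 19.3 and 18.3 CPM in *Cldn2*KO and 12.7, 50.4 and 11.4 CPM and 22, 21.9 and 21.6 CPM in WT (difference 4.44 ± 0.68, adjusted p = 0.0252). In each of these 4 the control levels of the genotypes differed as well, and in all, all 3 *Cldn2*KO controls were below all 3 WT controls for 18 of the 22 genes, while the recovery levels of the genotypes overlapped for 7.

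**Figure D5:**
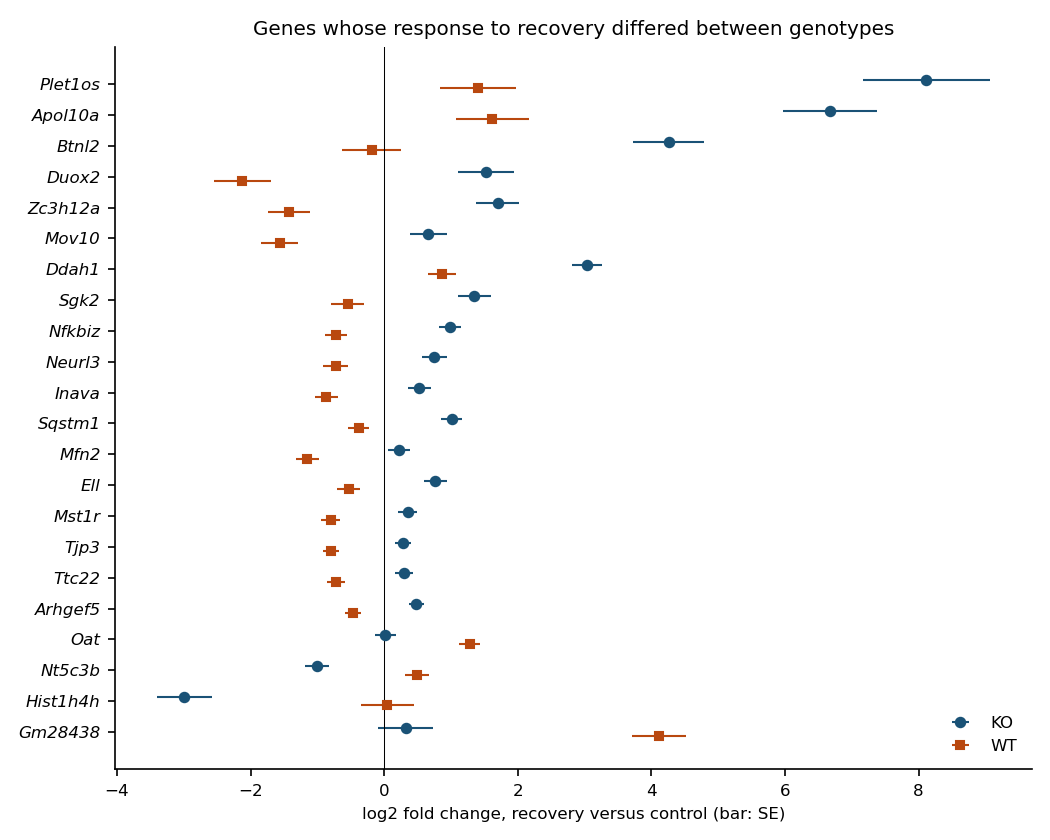
Log2 fold change ± SE of recovery over control in *Cldn2*KO (circles) and WT (squares) for the 22 genes whose response differed between genotypes. Most upper genes lie right of 0 in *Cldn2*KO and left of 0 in WT, and *Oat* rose in WT only, at 0.02 in *Cldn2*KO.

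*Apol10a* rose in both genotypes, by 6.67 ± 0.70 in *Cldn2*KO and by 1.62 ± 0.55 in WT (difference 5.05 ± 0.82, adjusted p = 0.0361), from 77.3, 369 and 77.6 CPM to 467, 743 and 398 CPM in WT, where all 3 WT controls were above the *Cldn2*KO controls. *Plet1os*, named as the opposite strand transcript of *Plet1*, whose reads cannot be told apart from those of *Plet1* if strand was not used in counting, had 1 read over the 3 *Cldn2*KO controls and 3.43, 11.8 and 4.43 CPM in recovery, and 2.28, 3.67 and 2.08 CPM and 5.66, 8.25 and 7.33 CPM in WT. *Ddah1* rose in both but more in *Cldn2*KO (difference 2.18 ± 0.30, adjusted p = 0.0155). *Tjp3*, which encodes the junction plaque protein ZO-3, was at 168, 184 and 189 CPM and 191, 242 and 226 CPM in *Cldn2*KO and at 264, 281 and 249 CPM and 159, 151 and 145 CPM in WT (difference 1.08 ± 0.17, adjusted p = 0.0272). *Oat*, ornithine aminotransferase, was not called in *Cldn2*KO, at 249.99, 250.1 and 239.9 CPM and 309, 234 and 206 CPM and rose in WT from 152, 166 and 162 CPM to 436, 352 and 376 CPM (difference -1.26 ± 0.23, adjusted p = 0.0442). *Hist1h4h*, a histone H4 gene, fell in *Cldn2*KO from 4.68, 8.27 and 5.49 CPM to 1.12, 0.789 and 0.394 CPM and was at 1.14, 1.18 and 1.54 CPM and 1.06, 1.58 and 1.36 CPM in WT. Without WT control 2, 13 of the 22 were called again and all 22 kept the sign of the difference. The test called 0 genes without *Cldn2*KO control 1, *Cldn2*KO control 2, *Cldn2*KO recovery 2, WT recovery 2 or WT recovery 3. It called 2 to 5 without *Cldn2*KO control 3, *Cldn2*KO recovery 3, WT control 1 or WT recovery 1, and 313 without *Cldn2*KO recovery 1.

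Medians of some lists, chosen after their values were seen, are given for both genotypes. The smooth muscle median was -2.88 in *Cldn2*KO and -1.83 in WT, that of collagen genes -1.49 and -1.25, and that of MHC class II genes -2.18 and -1.87. Other medians lay apart or on opposite sides of 0. They were 1.66 and -0.09 for T and NK cell genes, 3.43 and -1.44 for adipocyte markers, 1.83 and -1.73 for mast cell and eosinophil genes, and 1.23 and 0.07 for antimicrobial genes. Without WT control 2 the WT medians of T and NK cell genes and adipocyte markers were 1.11 and 2.44. TNF, NF-κB and cytokine genes were called higher in 6 and lower in 3 members in *Cldn2*KO and higher in 1 and lower in 10 in WT. Of this list *Nfkbiz* passed the test of the difference between genotypes.

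A list of 31 tested genes of claudin-2 biology, growth and inflammation held 5 that rose, among them *Tnf*, *Ereg*, *Cldn15* and *Egf*, and 1 that fell (*Parp1*, 34.2, 24.3 and 30.7 CPM to 14.3, 16.3 and 20.8 CPM, log2 fold change -0.80 ± 0.25, adjusted p = 0.0380). Without any 1 control library or recovery library 3, 1 or 2 of the 31 were called higher. This list was drawn from the study's own account of these samples and is not independent of them. *Areg*, amphiregulin, was at 31.4, 42.7 and 42.5 CPM and 23.1, 78.3 and 168 CPM (log2 fold change 1.21 ± 0.64, adjusted p = 0.212), *Myc* at 16, 8.66 and 12.2 CPM and 10.7, 16.1 and 41.1 CPM (adjusted p = 0.115), and *Ctnnb1*, β-catenin, at 1037, 1219 and 895 CPM and 1293, 1550.0 and 1390.1 CPM (adjusted p = 0.108). *Cldn2* was tested and not called, and *Il6* and *Il22* were too low to be tested. *Pcna*, *Ccnd1*, *Cdkn1b*, *Chek2*, *H2afx* and *Il1a* were not called (adjusted p = 0.909, 0.973, 0.567, 0.639, 0.555 and 0.985).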

How the data were processed

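Total RNA from colon of *Cldn2*KO and WT mice, untreated, recovering from DSS colitis or given AOM/DSS, was sequenced. The authors aligned reads to GRCm38, with TopHat2 according to the study's methods and HISAT2 according to the submitters' processing notes, and deposited raw counts per gene and lane from featureCounts, without normalization. Versions and strand setting were not given in the sources used here. The 2 lanes of each library were summed. Genes passing edgeR's filterByExpr over 6 groups (16937 of 47729) were scaled by TMM and fitted with edgeR 4.0.16 (R 4.3.3) in 1 robust quasi-likelihood model with a mean per group over all 18 libraries, with calls at an adjusted p (Benjamini-Hochberg) under 0.05. The fit was tested on simulated data. Gene lists, members and alternatives were chosen with earlier results of these data known. Named genes were Cldn2, the genes that the study discusses, the largest changes in fold and CPM without overlap at a mean of at least 5 CPM, list members by adjusted p and level, and markers, and further list members were named for their role after their values were seen. Counting intervals are exact at 95%, floors use 3 reads over a group, and both cover counting error only. DESeq2 1.42.0, limma 3.58.1 (voom), other scalings and filters, covariates and left-out libraries served as alternatives. Promoter windows came from RefSeq (GRCm38.p6). Some genes are not reported here.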

Additional observations from a re-analysis of the deposited data

Results flagged for a closer look

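The response to recovery differed between genotypes, by edgeR's test of the difference of the 2 responses, for 22 genes. The values are differences of log2 fold changes, *Cldn2*KO minus WT, ± SE, with n = 3 libraries in each of the 4 groups. *Plet1os* (6.71 ± 1.17), *Apol10a* (5.05 ± 0.82), *Btnl2* (4.44 ± 0.68), *Duox2* (3.65 ± 0.60) and *Zc3h12a* (3.12 ± 0.45) had the largest positive differences. Those of *Mov10* (2.22 ± 0.39), *Ddah1* (2.18 ± 0.30), *Sgk2* (1.9 ± 0.35), *Nfkbiz* (1.7 ± 0.23), *Neurl3* (1.48 ± 0.27), *Inava* (1.39 ± 0.24), *Sqstm1* (1.39 ± 0.22) and *Mfn2* (1.37 ± 0.23) followed. *Ell* (1.3 ± 0.24), *Mst1r* (1.15 ± 0.20), *Tjp3* (1.08 ± 0.17), *Ttc22* (1.03 ± 0.19) and *Arhgef5* (0.95 ± 0.17) had smaller positive differences. The difference was negative for *Oat* (-1.26 ± 0.23), *Nt5c3b* (-1.5 ± 0.25), *Hist1h4h* (-3.04 ± 0.56) and the predicted gene *Gm28438* (-3.79 ± 0.57). The fitted value of *Plet1os*, with 1 read over the *Cldn2*KO controls, depends on the prior count and is not a bound. Without *Cldn2*KO control replicate 1 or 2, *Cldn2*KO recovery replicate 2, or WT recovery replicate 2 or 3 the test called 0 genes, and without *Cldn2*KO recovery replicate 1 it called 313.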

How the results depend on the processing

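The count of genes called between *Cldn2*KO recovery and control (3291) stayed within 1.5 times under DESeq2 (4041), RLE scaling (3283), upper quartile scaling (3224), a minimum of 1 CPM in 3 libraries (3162), no filter (2624) and a fit of the compared groups alone (3800). It moved to 5721 with limma-voom, 1825 with *Xist* as a covariate, 729 with a tested fold above 2 and 131 with the posterior Hox covariate, and it ran from 1972 to 3975 with 1 library left out. For WT (3767) the count was 8086 with limma-voom, 2286 with *Xist*, 1819 with the compared groups alone, 1381 with the Hox covariate, 311 with a tested fold above 2, and 1846 to 4350 with 1 library left out. For the difference between genotypes (22) it was 1754 with limma-voom, 931 with DESeq2, 12 with upper quartile scaling, 9 with the compared groups alone, 4 with *Xist*, 0 with a tested fold above 2, and 0 to 313 with 1 library left out. For the *Cldn2*KO comparison, leaving out WT control 2 was chosen after seeing the data. The cause of these shifts was not tested. Control libraries of the 2 genotypes share replicate numbers, but their deviations from the group means correlated at only 0.157, 0.00234 and 0.0794, so a replicate block of the control libraries is a shared number and no pairing. The block gave 3174 calls in *Cldn2*KO, 3680 in WT and 7 for the difference between genotypes.

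Of the genes named with a fold change, the sign turned for 55 of 211 with the Hox covariate, with log2 fold changes of *1810065E05Rik* -0.61, *Adipoq* -1.09, *Ano1* 0.69, *Anxa3* 2.58, *Atp12a* 0.039, *Birc5* 0.59, *Btnl1* -0.0091, *Ccnd1* 0.52, *Cd8a* -0.41, *Cdh1* 0.17, *Cdx2* -1.08, *Chek2* 0.088, *Cldn14* 1.8, *Cldn15* -0.60, *Cldn7* -0.27, *Cma1* 0.98, *Cry1* -0.030, *Cyp2c65* -2.86, *Cyp2c68* 2.4, *Cyp3a25* -1.12, *Emp1* -0.48, *Fabp2* -2.0, *Foxa2* 0.045, *Fxyd4* 0.26, *Guca2a* -1.01, *H2-T3* -0.85, *H2afx* 0.59, *Hottip* 10.19, *Hoxb6* -0.62, *Il1a* -1.88, *Insl5* 5.53, *Krt14* 0.97, *Ly6a* 2.51, *Ly6g* 6.43, *Mki67* 0.27, *Mov10* -0.15, *Myo7b* -0.59, *Nfkb1* -0.23, *Nts* -0.19, *Oat* -0.089, *Parp1* 0.17, *Pcna* 0.30, *Pmaip1* 0.21, *Pparg* -0.48, *Saa1* 0.27, *Scnn1a* 1.4, *Slc3a1* -0.89, *Slc51a* -4.12, *Slc8a1* -1.06, *Sptssb* -1.51, *St8sia5* 1.49, *Tmprss13* 0.49, *Trpv6* 0.61, *Ugt2b5* -2.75 and *Vil1* -0.37. With *Xist* as a covariate it turned for *Ccnd1* 0.030, *Cldn7* -0.016, *Pcna* 0.0089 and *Rela* -0.042, with a minimum of 1 CPM for *Cldn7* -0.014 and *Oat* -0.0026, with limma-voom for *Cdkn1b* -0.0077, *Cldn3* 0.017 and *Oat* -0.027, and with upper quartile scaling for *Cdkn1a* -0.073, *Cldn7* -0.094, *Il1a* -0.047, *Oat* -0.076 and *Rela* -0.073. With 1 library left out it turned for genes that were not called, whose values ran over *Ccnd1* -0.71 to 0.27, *Cdkn1a* -0.19 to 0.16, *Cdkn1b* -0.064 to 0.31, *Cldn7* -0.099 to 0.15, *Il1a* -0.010 to 0.13, *Krt14* -0.81 to 0.11, *Oat* -0.16 to 0.14, *Pcna* -0.25 to 0.077, *Rela* -0.10 to 0.17 and *Vil1* -0.12 to 0.37. Depth was 17772309 to 22751153 reads per library, and the fitted values of genes with 3 or fewer reads in a group depend on the prior count and are no bounds. With 3 libraries a group, a p that missed the threshold does not show equal levels.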
